A study of Mus musculus with 7 samples.

Results

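In a culture of BB-p53n OPCs in which most nuclei held transcripts of both *Top2a* and *Mki67*, 427 of the 7821 kept nuclei (5.46%, exact binomial interval 4.97 to 5.99%) held no unique molecule (UMI) of either gene, and these nuclei are described here. Nuclei were kept when they had 2000 to 8000 detected genes and at least 8000 UMIs. They were compared with the 5129 kept nuclei (65.6%) that had 3 or more UMIs of each gene, and the remaining 2265 nuclei (29.0%) were treated as an intermediate class. *Top2a* encodes the topoisomerase that untangles replicated chromosomes, and *Mki67* encodes the protein that coats mitotic chromosomes. The class is defined by these 2 genes alone, so their absence is the rule and not a result. Low levels of the transcripts that accompany them in the cell cycle follow from that choice to a degree that was not tested. A single library was available for the cultured cells, nuclei are not replicates, and no test between classes was made. The intervals given below cover counting error only.

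BB-p53n OPCs are primary mouse oligodendrocyte progenitor cells, taken in the first postnatal week from the brains of *Trp53*fl/fl C57BL/6 pups of either sex. They were selected with an antibody to CD140a (PDGFRα) and transduced with a retrovirus that carries PDGFB and Cre recombinase, so that all nuclei compared here come from a culture meant to lack *Trp53* and to overexpress PDGFB. The nuclei were isolated from cultured cells with no debris removal and no filtering, and their RNA was counted by droplet 3′ snRNA-seq. The 3 early-stage and 3 late-stage tumor samples of the study were not analysed here. *Trp53* itself was counted at 29.1 CPM (the UMIs of a gene divided by all UMIs of the class, times 1000000) in the nuclei with neither transcript and at 24.5 CPM in the comparison nuclei, and 3′ counts do not show which exons were read, so this checks no deletion.

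A dividing cell passes from G1 through DNA replication (S phase) and G2 to mitosis, and each step has its own set of transcripts. Genes for origin licensing, nucleotide supply and DNA polymerases are switched on around the entry into S phase by E2F transcription factors, and genes for the spindle, the kinetochore and cytokinesis are switched on later. In cells that rest or are early in G1, a complex of pocket proteins and the MuvB core holds the late genes down. It acts at promoters with a short element called the cell cycle genes homology region (CHR), often near CCAAT boxes that bind NF-Y. Both *Top2a* and *Mki67* belong to the late set. Low levels of both are known from resting cells, from G1 and from early S phase.

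The promoters of genes on which the results turn are shown to let these elements be seen. Each run holds the 120 bases before the start of the GENCODE canonical transcript on GRCm39, 5′ to 3′ on the strand of the gene. Capitals mark exact matches, on either strand, to the CHR (TTTGAA), the NF-Y box (CCAAT) and the E2F letters (TTCCCGC or TTGGCGC). *Top2a* is the gene of the rule, *Cdk1* and *Kif23* stand for the mitosis genes, *Pif1* for a gene outside the lists with almost no UMIs, *Mcm6*, *Pola1* and *Rrm1* for the replication genes, and *Mxd4* for the genes at higher levels.
*Top2a*, chr11:98915042-98915161, minus strand: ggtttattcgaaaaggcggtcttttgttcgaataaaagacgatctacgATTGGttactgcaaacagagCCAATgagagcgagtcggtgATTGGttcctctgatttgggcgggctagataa
*Cdk1*, chr10:69188769-69188888, minus strand: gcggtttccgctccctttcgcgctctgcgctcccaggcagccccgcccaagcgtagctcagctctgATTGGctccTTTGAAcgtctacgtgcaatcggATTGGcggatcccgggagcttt
*Kif23*, chr9:61854074-61854193, minus strand: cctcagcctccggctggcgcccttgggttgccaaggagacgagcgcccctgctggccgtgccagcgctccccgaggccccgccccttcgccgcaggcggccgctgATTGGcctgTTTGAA
*Pif1*, chr9:65494367-65494486, plus strand: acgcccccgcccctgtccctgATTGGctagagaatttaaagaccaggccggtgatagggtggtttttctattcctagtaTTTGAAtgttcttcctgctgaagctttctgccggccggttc
*Mcm6*, chr1:128287453-128287572, minus strand: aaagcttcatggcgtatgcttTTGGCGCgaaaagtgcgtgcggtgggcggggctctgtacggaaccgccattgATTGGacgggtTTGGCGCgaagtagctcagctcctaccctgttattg
*Pola1*, chrX:92675814-92675933, minus strand: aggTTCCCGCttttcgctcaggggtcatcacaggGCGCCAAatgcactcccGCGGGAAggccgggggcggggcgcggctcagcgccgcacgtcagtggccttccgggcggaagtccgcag
*Rrm1*, chr7:102090770-102090889, plus strand: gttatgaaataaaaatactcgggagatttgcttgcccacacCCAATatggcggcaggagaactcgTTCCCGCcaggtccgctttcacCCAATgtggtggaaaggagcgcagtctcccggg
*Mxd4*, chr5:34345241-34345360, minus strand: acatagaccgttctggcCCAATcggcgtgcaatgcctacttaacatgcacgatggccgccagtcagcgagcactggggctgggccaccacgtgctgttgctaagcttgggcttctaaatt

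*Top2a* held 3 NF-Y boxes and no CHR match in this window. In *Cdk1* the CHR match began at -45 and lay between NF-Y boxes at -54 and -22. In *Kif23* an NF-Y box at -15 was followed by a CHR match at -6. *Pola1* held 3 E2F matches. Over the wider window from 250 bases before to 50 after the start, a CHR match was found in 26 of the 50 mitosis and G2 genes (52%) and in 13.2% of the promoters of the 7609 genes with a promoter that were counted at 20 CPM or more. The E2F letters were found in 53.2% of the 47 replication genes at that level and in 12.5% of all promoters. The NF-Y box is common, with a match in 74% of the mitosis and G2 genes, 51.1% of the replication genes and 40.2% of all promoters. These matches are a description of letters and not of binding.

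Nuclei with neither transcript were shallower than the comparison nuclei. Their median was 11175 UMIs (8020 to 36132), against 11978 in the intermediate class and 17250 in the comparison class. The deeper the nuclei, the smaller was the share of the class, with 13.0% of the nuclei of 8000 to under 10000 UMIs (143 of 1102) and 0.78% of those with 20000 or more (16 of 2047). When each kept nucleus was thinned to 8000 UMIs before the rule was applied, 645 nuclei (8.25%) had neither transcript. These were all 427 of the class, 212 of the intermediate nuclei (9.36%) and 6 of the comparison nuclei (0.117%). Since the classes are defined by the same counts, this order is largely set by the rule. Detected genes, thinned to 8000 UMIs, had a median of 3375 in the class and 3519 in the comparison nuclei. The mitochondrial share had medians of 6.26% and 6.12%. Scrublet, which scores barcodes that resemble mixtures of nuclei, called 3.51% of the class and 23.6% of the comparison nuclei as doublets. The part of depth and of doublets in the differences below was not tested.

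The share of the class by cluster depended on how the clusters were made. In clusters made without the cell cycle lists alone, 1 cluster of 1314 nuclei held no member (up to 0.28%) and another of 1288 nuclei held 167, or 39.1% of the class. Nuclei were then clustered with the cell cycle lists and the genes that follow them left out, and the class made up 6.59% of cluster 0 (166 nuclei), 3.86% of cluster 1 (58), 4.77% of cluster 2 (46), 8.45% of cluster 3 (100) and 6.57% of cluster 5 (26). It was scarcer in cluster 4, at 0.72% (6 nuclei), whose median depth was 30276 UMIs, and in cluster 6, at 0.37% (1 nucleus). Its share was highest in the small cluster 7, at 16.0% (24 of 150 nuclei, interval 10.5 to 22.9%). *Xist*, the RNA of the inactive X chromosome, was found in 96.1% of the nuclei of cluster 1, and at least 1 of 4 Y-linked genes in 82.5% of those of cluster 2, so that nuclei from female and male cells both contained members of the class. *Xist* was at 102 CPM in the class and 189 CPM in the comparison nuclei.

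**Figure D1:**
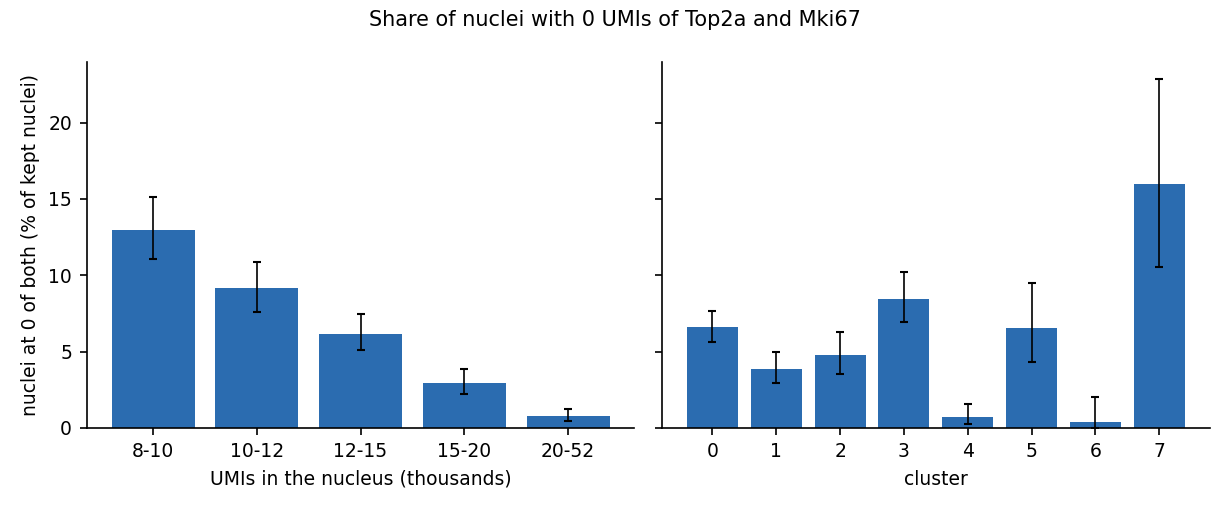
Share of kept nuclei with 0 UMIs of *Top2a* and *Mki67* (%), by UMIs in the nucleus (left) and by cluster made without the cell cycle genes (right). Bars are shares and lines are exact binomial intervals. The share is 13.0% in the shallowest bin and 0.78% in the deepest, and is highest, at 16.0%, in cluster 7.

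Mitosis and G2 transcripts were scarce in the class. The summed level of 50 such genes was 831 CPM, against 2985 CPM in the intermediate nuclei and 8092 CPM in the comparison nuclei, a ratio of class to comparison of 0.103 (0.0997 to 0.106). Against the intermediate nuclei, the ratio was 0.279. All 50 genes were at least 1.5 times lower, where 6.33% of the 7614 genes counted at 20 CPM or more in the higher class were. Per nucleus, thinned to 8000 UMIs, the list held a median of 5 UMIs in the class, 20 in the intermediate and 63 in the comparison nuclei. After thinning, 24 members of the class (5.62%) held none of the 50 transcripts. At full depth, 6 members (1.41%) lay above the 5th percentile of the comparison nuclei.

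The 10 lowest genes of the cycle lists had ratios under 0.05. *Gtse1*, which acts on microtubules in G2 and mitosis, was counted with 3 UMIs in the whole class (0.586 CPM) and at 35.4 CPM in the comparison nuclei, a ratio of 0.0166 (0.00341 to 0.0484). *Kif14*, a kinesin of cytokinesis, had 5 UMIs and a ratio of 0.0196. *Aspm*, which organises spindle poles, was at 4.29 CPM against 168 CPM. *Plk1*, a kinase that drives entry into mitosis, was at 3.71 CPM against 97.7 CPM. *Aurkb*, the kinase of the chromosomal passenger complex, was at 3.51 CPM against 77.9 CPM. *Depdc1a*, *Hmmr*, *Kif23*, *Kif11* and *Ndc80*, the last a part of the kinetochore, had ratios of 0.0183 to 0.0445. In each of these genes the intermediate nuclei lay between the other classes.

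The members of the list did not share a common ratio. *Ccnb2*, a B-type cyclin, was at 19.1 CPM in the class and 45.0 CPM in the comparison nuclei, a ratio of 0.425, whereas its paralog *Ccnb1* was at 12.9 against 181 CPM, a ratio of 0.0714. *Smc2* and *Smc4*, the core of condensin, stood at 0.204 and 0.202, and *Cenpa*, the histone variant of centromeres, at 0.198. *Cdk1*, the kinase that B-type cyclins activate, was at 28.9 CPM against 277 CPM, a ratio of 0.104. RNA free in the droplets gives UMIs to nuclei that do not make a transcript. As gauges of it, the 4 Y-linked genes stood at 9.79% of their level in the library in cluster 1, and *Xist* at 4.93% of its level in cluster 2. The mitosis list in the class stood at 12.4% of its level in the library. The part of free RNA in the remaining mitosis transcripts was not tested.

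The transcripts of G1/S and DNA replication were reduced far less. The summed level of 50 such genes was 2204 CPM in the class, 4099 CPM in the intermediate and 4258 CPM in the comparison nuclei, a ratio of 0.518 (0.508 to 0.527). Of the 47 that reached 20 CPM, 37 were at least 1.5 times lower and none was as much higher, where 6.33% and 1.76% of all genes were. In cluster 1, with 58 members, the ratio of this list was 0.84 (0.805 to 0.877), and it ran from 0.385 to 0.491 in the 5 other clusters with over 20 members. The mitosis list likewise had its highest ratio in cluster 1, at 0.169, against 0.0647 to 0.105 in those 5. The members differed among themselves. *Ung*, a uracil DNA glycosylase, was at 20.9 CPM against 16.4 CPM. *Cdca7* was at 23.6 CPM against 22.7 CPM. *Cdt1*, a licensing factor, was at 29.3 CPM against 34.7 CPM, and *Ccne1*, the cyclin of S-phase entry, at 16.0 CPM against 22.0 CPM. *Cdc6*, which loads the helicase, was lower at 20.7 CPM against 33.0 CPM. Subunits of the MCM helicase ranged in ratio from 0.465 for *Mcm5* to 0.748 for *Mcm6*. *Rrm2*, the regulated subunit of ribonucleotide reductase, was at 28.7 CPM against 117 CPM, *Clspn*, a checkpoint adaptor, had a ratio of 0.278, *Brca1* of 0.255 and *Fancd2* of 0.167.

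Along the count of *Top2a* and *Mki67* UMIs the 2 lists took different courses. With 0, 1 and 2 UMIs of the pair in a nucleus, the mitosis list stood at 831, 1356 and 1852 CPM, and it went on upward to 9845 CPM in the nuclei with 51 to 132 UMIs. The replication list stood at 2204, 3044 and 3396 CPM at the low end, was highest at 4999 CPM in nuclei with 11 to 20 UMIs, and was 3853 CPM in those with 51 or more. Just outside the rule, 400 nuclei held a single UMI of the pair, 268 of them of *Top2a* and 132 of *Mki67*. For the replication list, the step at the edge of the class was larger than the next, while for the mitosis list these steps were alike within counting error. Depth changed along the same axis, with a median of 11175 UMIs in the class, 11358.5 at 1 UMI of the pair and 30631.5 at 51 or more, and its part in the gradient was not tested.

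**Figure D2:**
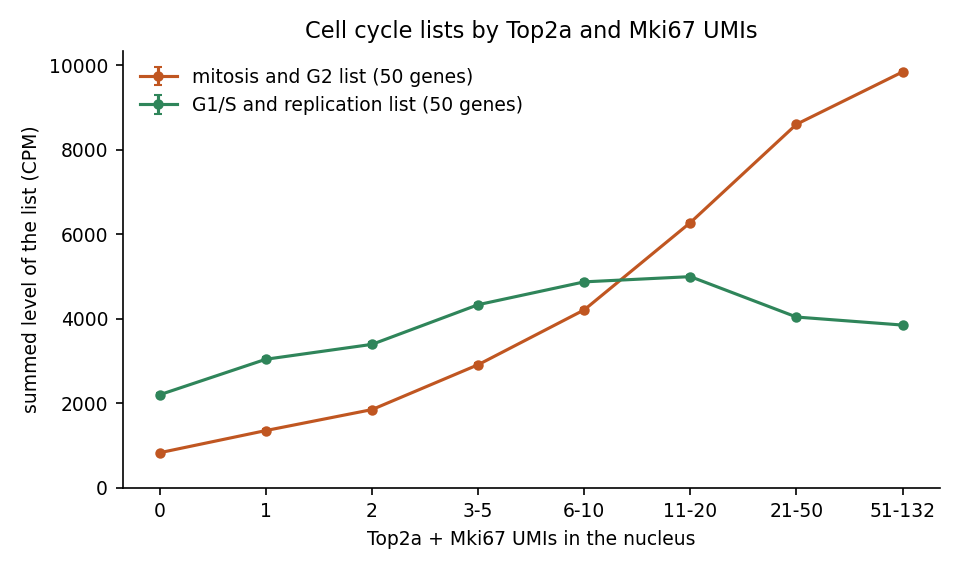
Summed level (CPM) of the mitosis and G2 list and of the G1/S and replication list in kept nuclei grouped by their *Top2a* plus *Mki67* UMIs. Points are pooled levels, with Poisson intervals mostly smaller than the points. The mitosis list climbs from 831 to 9845 CPM, and the replication list peaks at 4999 CPM, while median depth goes from 11175 to 30631.5 UMIs.

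A name such as nuclei without proliferation transcripts would go against these data, since replication transcripts stood at 53.2% of their level in the library. In single nuclei of the class, the replication list had a median of 1833 CPM and ran from 370 CPM at the 5th to 5651 CPM at the 95th percentile. It exceeded the median of the comparison nuclei in 78 members (18.3%) and their 5th percentile in 177 (41.5%). A part of the class thus held as much replication transcript as many comparison nuclei. For this reason the nuclei are called here by their rule.

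**Figure D3:**
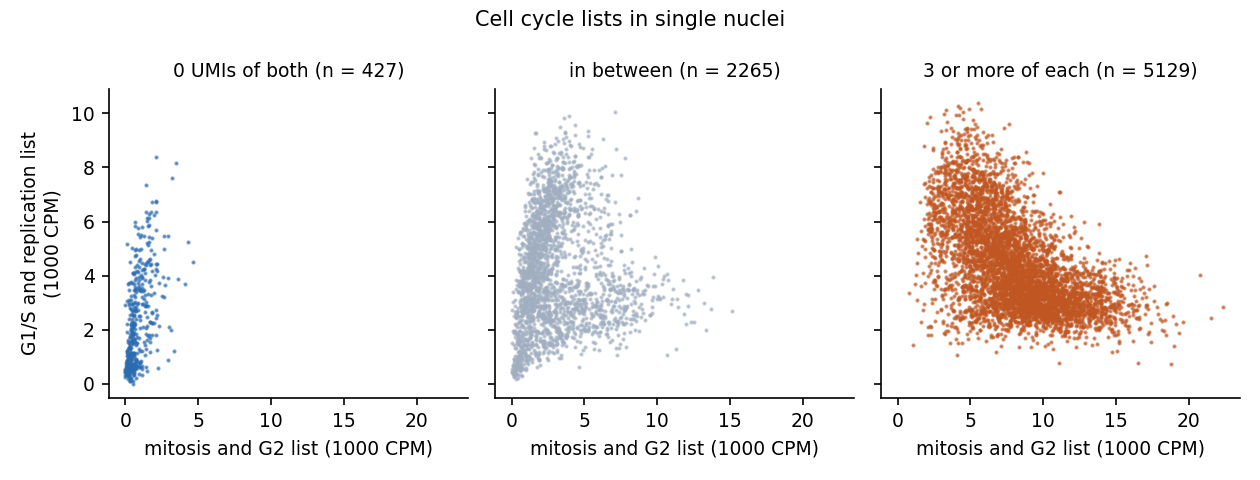
Levels of the mitosis and G2 list (horizontal, in 1000 CPM) and of the G1/S and replication list (vertical, in 1000 CPM) in single nuclei of the 3 classes. Each point is a nucleus. The 427 nuclei at 0 of both genes lie at or below 4617 CPM of the mitosis list, with a 95th percentile of 2186 CPM, and run upward from near 0 to 8404 CPM of the replication list.

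To follow this spread, the class was split by the replication list into tertiles of 143, 142 and 142 nuclei. This is a range and not a type: 19 members lay within 10% of the lower edge and 34 within 10% of the upper. The split fixes the replication genes, which are given only to show what it did. *Ccne1* stood at 2.27, 10.9 and 36.6 CPM in the lowest, middle and highest tertile, *Cdc6* at 2.27, 8.0 and 54.6 CPM, and *Rrm2* at 1.70, 15.4 and 72.5 CPM. The lowest held the replication list at 586 CPM, 14.2% of its level in the library, and the mitosis list at 406 CPM, 6.07% of it. The gauges of free RNA given above were 9.79% and 4.93%. Median depth was 11589, 11266 and 10669.5 UMIs, so the lowest tertile was not the shallowest.

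Of the 7614 genes, 134 (1.76%) were 1.5 times or more above the comparison nuclei and 482 (6.33%) as far below. The counts depended on the setting, with 546 higher and 727 lower among nuclei with at most 5% mitochondrial UMIs (81 of the class), and 213 and 650 with comparison nuclei weighted to the UMI bins of the class. At 2-fold the counts were 27 (0.355%) and 282 (3.7%). As 20 CPM were required only in the higher class, some of the 134 were counted only through their level in the nuclei with neither transcript. The lower bound of the ratio was above 1 for all 134, which the fold and the 20 CPM limit that chose them largely fix. In 124 of them the intermediate nuclei lay between the classes, and 42 were also 1.5 times or more above the intermediate nuclei, where 0.65% of 7536 genes were. As far below the intermediate nuclei were 283 genes (3.76%). Of the 482 lower genes, 87 were on the cell cycle lists. The median ratio over all genes was 0.98.

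*Mxd4* led the genes that many nuclei of the class expressed. It encodes a partner of MAX that competes with MYC and is known from cells that leave the cycle, and it lies at chr5:34331227-34345240 on the minus strand. It was counted at 69.3 CPM (62.3 to 76.9) in the class, 30.8 CPM in the intermediate and 21.5 CPM (20.6 to 22.5) in the comparison nuclei, a ratio of 3.22 (2.87 to 3.60). Thinned to equal depth, 36.1% of the class and 14.5% of the comparison nuclei held a UMI. Its ratio was above 2 in each of the 6 clusters with more than 20 members, from 2.14 in cluster 7 to 3.86 in cluster 5, and in each depth bin, from 2.43 to 4.31. It was highest in the lowest replication tertile, at 105, 46.9 and 54.6 CPM.

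In the list of pocket proteins, MuvB and quiescence factors, 3 of the 23 genes at 20 CPM or more were higher and 5 lower, where 1.76% and 6.33% of all genes were. The summed ratio of the list was 0.860 and its median 0.862. The list mixes genes of different roles, so neither value stands for quiescence factors alone. The 3 higher genes were *Mxd4*, *Btg2* and *Btg1*. *Btg2*, an antiproliferative gene of the BTG/TOB family, was at 77.5 CPM in the class, 46.9 CPM in the intermediate and 39.2 CPM in the comparison nuclei, a ratio of 1.97 (1.78 to 2.19). Cluster 1, with 4 UMIs in the class, had a ratio of 0.40 (0.108 to 1.04), while the 5 other clusters with over 20 members had ratios of 1.77 to 2.52. Its paralog *Btg1* was at 81.2 against 49.7 CPM, a ratio of 1.63. By replication tertile *Btg2* stood at 98.9, 82.3 and 49.0 CPM and *Btg1* at 107, 80.6 and 53.9 CPM. *Foxo3*, a forkhead factor active when growth signals are low, was at 28.5 against 20.7 CPM and did not reach 1.5-fold. *Tob1*, *Tob2* and *Foxo1* had ratios of 1.14, 0.881 and 1.23.

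Components of the repressor complex were not among the higher genes. *Rb1* was at 31.2 against 43.6 CPM, and *Rbl2*, the pocket protein of resting cells, at 23.4 against 27.8 CPM. *Rbl1*, which is itself made in S phase, was lower at 26.7 against 53.4 CPM. *Lin9* and *Lin54*, 2 subunits of MuvB, had ratios of 0.528 and 0.385, and *Lin52* and *Rbbp4* of 0.859 and 0.862. Outside the repressor complex, *Fzr1*, an activator of the anaphase-promoting complex in G1, was at 11.7 against 32.4 CPM. Also outside it, *Gas2l3*, a cytoskeletal linker of dividing cells, was at 7.03 against 93.7 CPM.

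In the pooled counts, D-type cyclins, which link growth signals to the cycle, were near the level of the comparison nuclei. *Ccnd1* was counted at 1329 CPM in the class, 1332 CPM in the intermediate and 1218 CPM in the comparison nuclei, a ratio of 1.09 (1.07 to 1.12). Its ratio was 0.973 in the shallowest depth bin and 1.66 (1.55 to 1.78) in the deepest, which held 16 members. Within clusters it ran from 0.794 in cluster 7 to 1.33 in cluster 2. *Ccnd2* was at 159.5 against 159 CPM and *Ccnd3* at 52.7 against 70.1 CPM. *Cdk4*, their kinase partner, was at 310 against 356 CPM. In the lowest replication tertile *Ccnd1* still stood at 1212 CPM.

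Inhibitors of the cyclin-dependent kinases were not raised beyond the 1.5-fold limit. *Cdkn1a* was at 23.0 against 17.9 CPM, and *Cdkn2a* at 142 against 130 CPM. *Cdkn1b*, which holds many resting cells in G1 as a protein, was lower as RNA, at 56.8 CPM against 65.2 CPM in the intermediate and 86.5 CPM in the comparison nuclei, a ratio of 0.657 (0.582 to 0.738). Over the alternatives its ratio ran from 0.648 to 0.724, so that it did not pass the fold in all of them, and it was 0.936 and 0.95 in clusters 2 and 7. *Cdkn2c* and *Cdkn2d* were lower still, at 23.8 against 85.5 CPM and 28.9 against 82.1 CPM. These 3 were the members of the 9 measured at 20 CPM or more that passed the fold, and none passed it upward (6.33% of all genes were lower and 1.76% higher).

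Targets of p53, which can arrest the cycle, and genes of senescence, a lasting arrest, were read against the same shares of 1.76% higher and 6.33% lower over all genes. Of 9 p53 targets at 20 CPM or more, *Plk2* was higher (130 against 82.7 CPM) and *Gtse1* lower, and *Mdm2* was at 60.7 against 61.3 CPM. Under that level, *Trp53inp1* was at 17.6 against 5.16 CPM, a ratio of 3.4, and *Bbc3*, a proapoptotic gene, at 6.44 against 2.19 CPM. Of 6 senescence genes at that level, *Lmnb1* (154 against 368 CPM) and *Hmgb2* (193 against 1081 CPM) were lower and none was higher. Both are also made in proliferating cells. The summed ratio of the list was 0.446, set largely by *Hmgb2* and *Lmnb1*, while the median ratio of its 6 genes was 1.04. The sum thus does not show a lower level of senescence genes as a set. *Il6*, *Cxcl1* and *Mmp3* had no UMI in the class.

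Pooled over clusters, markers of the OPC lineage were present at levels near those of the comparison nuclei. *Pdgfra*, the PDGF receptor used to select the cells, was at 257 CPM (class), 243 CPM (intermediate) and 265 CPM (comparison). Its ratio differed with depth and cluster, at 1.16, 1.41 and 1.74 in the 3 shallowest bins, 1.03 and 0.84 in the deeper ones and 0.609 (0.451 to 0.807) in cluster 2. *Cspg4* was at 66.0 against 66.4 CPM, *Olig2* at 309 against 296 CPM and *Sox10* had a ratio of 1.05. Of the 15 OPC genes at 20 CPM or more, *Tnr*, a matrix protein, was higher at 224 against 135 CPM, as was *Megf11* at 55.1 against 31.5 CPM, and none was lower, where 1.76% of all genes were higher and 6.33% lower. Within clusters the ratio of *Tnr* ran from 0.85 in cluster 1 to 4.15 in cluster 7, and it was under the fold in clusters 0, 1 and 2. *Lhfpl3* was at 2470 against 1926 CPM, a ratio of 1.28. Levels differed between clusters in both classes. In cluster 1, with 58 members, *Pdgfra* was at 13.0 against 19.6 CPM and *Lhfpl3* at 94.6 against 130 CPM. In cluster 0, with 166 members, they were at 327 against 346 CPM and 2336 against 1983 CPM.

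Of the 9 genes of committed precursors and 3 of myelin at 20 CPM or more, 1 was higher and none lower, against 1.76% and 6.33% of all genes. *Sox4*, a transcription factor of immature neural cells, was at 396, 282 and 227 CPM in the class, the intermediate and the comparison nuclei, a ratio of 1.75 (1.67 to 1.83), and its ratio in the 6 clusters with over 20 members ran from 1.35 to 2.08. *Bcas1*, a marker of early myelinating cells, was at 449 against 329 CPM. *Enpp6* and *Bmp4*, which mark committed precursors, had no UMI. *Mog*, *Mag* and *Mobp* had no UMI, and none of the 3 myelin genes at 20 CPM or more passed the fold. Over the alternatives the ratio of the myelin list ran from 1.0 to 1.6.

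Of the genes of primitive OPCs and stem cells, *Egfr*, the receptor of epidermal growth factor, was at 39.6, 65.9 and 57.1 CPM in the class, the intermediate and the comparison nuclei, and at 21, 28.6 and 71.9 CPM over the replication tertiles. Its level differed between clusters, with 235 CPM in the comparison nuclei of cluster 1 and 3.09 CPM in those of cluster 0, and within clusters 0, 1, 2 and 7 its ratio was 0.897, 0.84, 1.03 and 0.87. *Sox2* had a ratio of 0.831 and *Nes* of 0.809, while *Btg2* and *Sox4*, which are also on this list, were higher. Of its 15 genes at 20 CPM or more, 2 were higher and 1 lower, against 1.76% and 6.33% of all genes, and the ratio of the sum was 1.03.

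Markers of other cell types were checked by list. The 9 microglial genes summed to 21.7 CPM in the class and 23.8 CPM in the comparison nuclei, with *Aif1*, *C1qa*, *C1qb* and *Tyrobp* at 0 in the class. Of the 7 endothelial genes, *Cldn5* and *Cdh5* were at 0 and the sum was 10.2 against 10.0 CPM. The 8 fibroblast and pericyte genes summed to 1.56 against 1.59 CPM, and 5 of them were at 0. The 12 astrocyte genes summed to 867 CPM in the class and 753 CPM in the comparison nuclei, a ratio of 1.15, and none of the 5 at 20 CPM or more passed the fold. *Gfap*, *Aqp4* and *Gja1* were at 0, and *Sox9*, a factor that glial progenitors share, stood at 266 against 184 CPM. The 13 neuronal genes summed to 556 against 431 CPM, a ratio of 1.29, and 1 of the 5 at 20 CPM or more was higher, where 1.76% of all genes were. This was *Dcx*, a microtubule protein of migrating neuroblasts, at 45.5 against 27.7 CPM, while *Slc17a6*, *Slc17a7* and *Stmn2* were at 0.

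Of the signalling and growth lists, the ratio of the sum was 0.964 for ERK feedback and ETS genes and 0.983 for Myc targets and ribosome biogenesis, with no gene lower in either. *Myc* itself was higher, at 90 against 58.0 CPM (1.55, interval 1.41 to 1.71), and stood over the replication tertiles at 83.0, 95.4 and 91.8 CPM. *Ncl*, a nucleolar protein, was at 764, 910 and 1062 CPM over those tertiles. *Ddit4*, an inhibitor of mTORC1, was at 28.5 against 14.0 CPM and stood at 46.0, 25.1 and 13.0 CPM over the tertiles, while *Ldha*, *Pgk1* and *Vegfa* of the same hypoxia and glycolysis list had ratios of 1.03, 1.07 and 1.29. *Ddit3*, a factor of the integrated stress response, was at 21.7 against 12.3 CPM, and *Atf4* and *Hspa5* had ratios of 0.974 and 0.952. The 9 genes of that list at 20 CPM or more had a median ratio of 1.20, and the 9 immediate early genes one of 1.24, with 1 gene higher in each list (*Ddit3* and *Myc*) and none lower, against 1.76% and 6.33% of all genes. *Ddit3* and *Ddit4* reached 20 CPM only in the class, so the filter partly set that they were counted as higher. Among the 21 glutamate receptor and synapse genes at 20 CPM or more, none passed the fold.

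**Figure D4:**
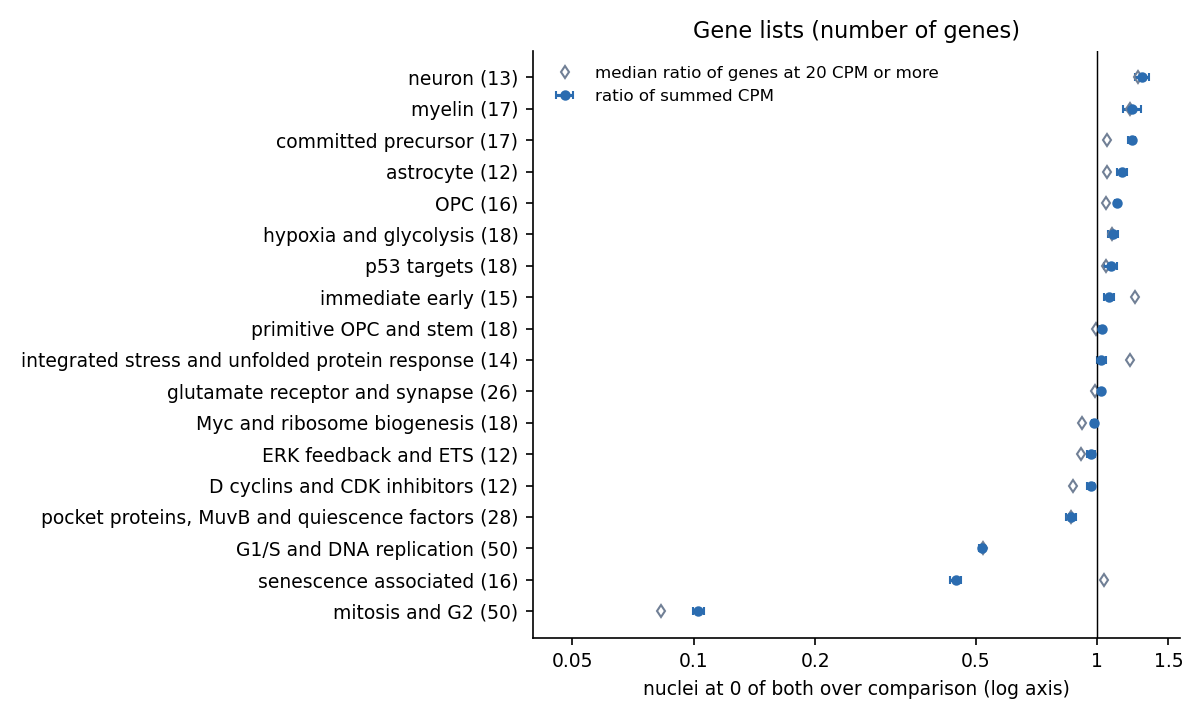
Ratio of the summed level of each gene list in nuclei at 0 of both genes to that in comparison nuclei (circles, with Poisson intervals) and median ratio of the list's genes at 20 CPM or more (diamonds), on a log axis. The mitosis list lies at 0.103, the replication list at 0.518 and the other lists, except the senescence list at 0.446, between 0.860 and 1.29. The senescence sum is set largely by *Hmgb2* and *Lmnb1*, and the median ratio of that list is 1.04.

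Outside the cell cycle lists, the 10 genes with the highest ratios among those found in at least 25% of the class were *Mxd4*, *Dync1i1*, *Fbxl20*, *A230057D06Rik*, *A330076H08Rik*, *Fhit*, *Atosa*, *Kdm7a*, *Hotairm1* and *Neat1*. *Fbxl20*, an F-box protein, was at 40.4, 28.8 and 13.8 CPM (2.94). *Neat1*, the long noncoding RNA that builds paraspeckles, was at 208, 117 and 103 CPM (2.02), and at 302, 193 and 121 CPM over the replication tertiles. Its ratio varied with depth, at 1.41 and 0.953 in the 2 shallowest bins, which held 143 and 112 members, and at 1.54, 2.54 and 3.82 in the deeper ones. *A230057D06Rik* and *A330076H08Rik*, noncoding RNAs that overlap on the minus strand at chr7:61354267-61578438 and chr7:61577515-61632293, were at 337 against 136 CPM and at 118 against 48.3 CPM. As these transcripts overlap, their counts may not be independent. *Kdm7a*, a histone demethylase, had a ratio of 2.09, and so did *Atosa*. *Hotairm1*, a noncoding RNA of the HoxA cluster, had 2.07 and *Fhit* 2.42.

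*Dync1i1*, a dynein subunit, stands apart from these. It was at 146 against 47.3 CPM, a ratio of 3.09, but its ratio was 7.26 among nuclei with 8000 to under 10000 UMIs and 0.641 among those with 10000 to under 12000, and it was 1.12 without the 150 nuclei of cluster 7. *Mxd4*, *Fbxl20*, *Fhit* and *Neat1* had ratios of 3.25, 2.97, 2.46 and 1.91 without that cluster.

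Noncoding RNAs were frequent among the higher genes. Of 140 long noncoding RNAs at 20 CPM or more, 32 (22.9%) were 1.5 times or more higher, against 102 of 7469 protein-coding genes (1.37%), and their median ratio was 1.21 against 0.979. Over the alternatives, with these same genes held fixed, the shares ran from 16.4 to 28.6% and from 1.15 to 4.43%. The 20 CPM were required only in the higher class, so some of the higher RNAs were counted only through the class. Among them, *Nkx2-2os* was at 24.6 against 10.5 CPM and *Hotairm1* at 37.9 against 18.3 CPM. The shares of higher genes are thus partly set by this filter, and its part was not tested.

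The 10 lowest genes outside the lists included further genes of mitosis. *Pif1*, a DNA helicase, had 3 UMIs in the class (0.586 CPM) and 21 CPM in the comparison nuclei, a ratio of 0.0279 (0.00575 to 0.0816). *Prr11*, *Ska1*, *Cep55*, *Cdca2*, *Esco2*, *Nek2*, *Ccnf*, *Espl1* and *Kif2c* had ratios of 0.0303 to 0.0613. *Cep55* acts in the final cut between daughter cells, *Esco2* acetylates cohesin in S phase, and *Espl1* is the protease that frees sister chromatids. Of the 395 lower genes outside the lists, 29.4% held a CHR match in the wider promoter window. Of the 134 higher genes 14.2% held one, 4.48% held the E2F letters and 2.99% the forkhead letters GTAAACA, where 13.2%, 12.5% and 2.58% of all promoters did.

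Most of the higher genes stood higher in the members with few replication transcripts than in those with many. Of the 134, 114 (85.1%) stood higher in the lowest than in the highest tertile, where 45.5% of the 7694 genes tested between tertiles did. Both comparisons use the same nuclei of the class, and the 134 were chosen for their levels in them, while the 7694 were not so chosen. The contrast is thus no independent support and only describes where the levels lie. A further 4 genes of the 134 that stood higher in the lowest tertile were picked after their values were seen. Of these, *Fbxo32*, *Nupr1* and *Crebrf* reached 20 CPM only in the class, so the filter partly set their place among the higher genes. *Fbxo32*, an F-box protein of protein breakdown, stood at 40.9, 13.7 and 8.06 CPM over the tertiles and at 6.23 CPM in the comparison nuclei. Of its 109 UMIs in the class, 41 came from the 24 members in cluster 7, and its ratio was 3.42 with and 2.77 without that cluster. *Nupr1*, a stress-induced nuclear protein, stood at 54.0, 22.3 and 12.4 CPM. *Pik3r3*, a regulatory subunit of PI3 kinase, stood at 183, 88.0 and 68.8 CPM, and *Crebrf* at 59.7, 32.0 and 16.7 CPM. The highest tertile was near the comparison nuclei in *Nupr1* (13.5 CPM), *Neat1* (103 CPM) and *Ddit4* (14.0 CPM), whereas *Mxd4* stayed above them there, at 54.6 against 21.5 CPM.

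**Figure D5:**
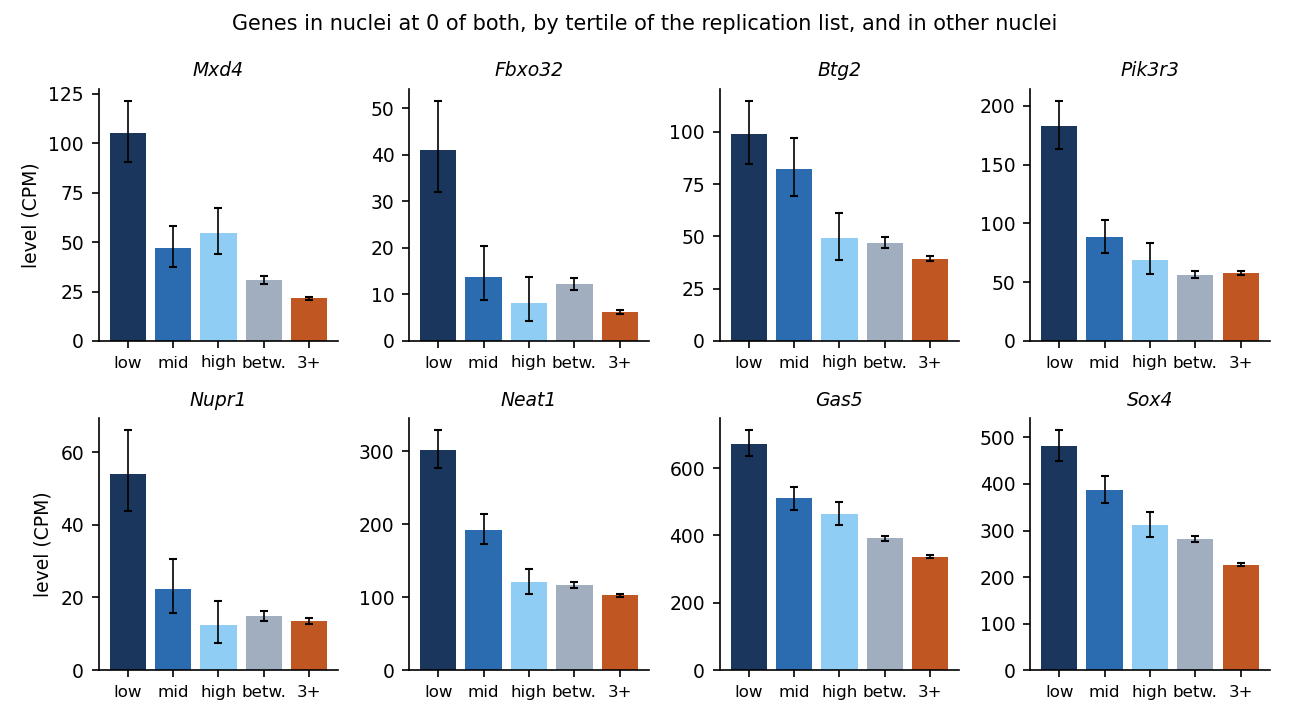
Levels (CPM) of 8 genes in the lowest, middle and highest tertile of the class by replication list (low, mid, high), in the intermediate nuclei (betw.) and in the comparison nuclei (3+). Bars are pooled levels and lines are Poisson intervals. *Fbxo32* goes from 40.9 to 8.06 CPM over the tertiles, and *Mxd4* is above the comparison nuclei in each.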

How the data were processed

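A single 10x library (3′ v3.1) of nuclei from cultured BB-p53n OPCs was used. The authors ran Cell Ranger 8.0.1 on mm39, per the submitters' processing notes, and the deposited values are UMI counts with no normalization (10047 barcodes, 33696 genes). The paper names the default Cell Ranger pipeline, and whether intronic reads were counted is not stated separately in the sources used here. Positions come from GENCODE on GRCm39, the same build (33185 genes matched by identifier).

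Of 8917 barcodes with 2000 to 8000 genes, 1096 had fewer than 8000 UMIs and were left out, 242 of them at 0 of both genes. The counts of each class were summed (5122398, 29345558 and 99597001 UMIs in the class, the intermediate and the comparison nuclei) and scaled to CPM. Ratios carry exact conditional Poisson intervals at 95%. A gene passed the fold at 1.5 or more in either direction with at least 20 CPM in the higher class. On simulated data for this comparison, 99% of 200 changed genes among 7449 were recovered. Doublet scores came from Scrublet (scanpy 1.11.5) and no nucleus was removed by them. Seurat 5.3.0 made the clusters from 2696 variable genes, after the cycle lists and genes correlated with them at 0.1 or more were removed.

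Named were *Top2a*, *Mki67*, list members, and the 10 highest and lowest ratios outside the cycle lists and the 10 lowest within them, among genes at 20 CPM and in 25% of the nuclei of the higher class. Beyond 6 genes per list, names were chosen after their values were seen. The members and the 21 lists were chosen with earlier results of these data known. Some genes of the lists are not reported here.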

Additional observations from a re-analysis of the deposited data

How the results depend on the processing

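No paired analysis was possible because 1 library was analysed. The share of nuclei at 0 of both genes was 7.50% with no minimum on UMIs, 4.85% among nuclei with at most 5% mitochondrial UMIs (81 nuclei of the class), 8.25% after thinning to 8000 UMIs and 6.41% without nuclei called by Scrublet. The ratio of the mitosis list was 0.113 with no minimum on UMIs, 0.0949 with the mitochondrial limit, 0.0990 once the top 8% by Scrublet score were left out, 0.0962 without Scrublet calls, 0.112 against comparison nuclei with 1 or more UMIs of each gene, and 0.123 with comparison nuclei weighted to clusters made without the cycle lists. The ratio of the replication list was 0.537, 0.461 and 0.451 under the first, second and last of these, 0.461 with comparison nuclei weighted to UMI bins and 0.505 weighted to clusters that also left out genes following the lists. Genes 1.5 times higher numbered 546 with the mitochondrial limit, 213 weighted to UMI bins and 560 with a filter of 5 CPM, and genes as much lower 727, 650 and 739. Of the 134 higher genes, 91 to 134 stayed 1.5 times higher under each alternative. *Arhgap24*, chosen after its values were seen, was at 3.72 and turned to 0.84 without cluster 7. Weighting to clusters without following genes, leaving out cluster 7 and leaving out Scrublet calls were added after seeing the data. The cause of these shifts was not tested. A gene without a UMI in the class could lie at up to 0.586 CPM, the level of 3 UMIs.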

Other observations

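Further gene groups were put together after their values were seen. Replication-dependent histone genes, which are made in S phase, were mostly low in nuclei with neither *Top2a* nor *Mki67*. Of the 19 at 20 CPM or more, 14 were at least 1.5 times lower, with a median ratio of 0.177, where 6.33% of all genes tested were. *H1f5* was at 35.3 CPM against 367 CPM in the comparison nuclei, and *H1f4* at 47.6 against 271 CPM. Of the 19, 4 had a ratio above 1, among them *H2bc27* (131 against 74.4 CPM) and *H2bc4* (177 against 110 CPM). The histone genes are near-identical copies, so reads may have been split among them. How fully 3′ counting captures the RNAs of these genes was not tested.

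Noncoding host genes of small nucleolar RNAs stood higher. Of 14 at 20 CPM or more, 13 had a ratio above 1 and 7 were 1.5 times or more higher, with a median of 1.51 that ran from 1.40 to 1.65 over the alternatives. Of all 140 long noncoding RNAs at that level, these included, 22.9% were as much higher, with a median of 1.21. Both sets hold genes that reached 20 CPM only in the class, such as *Dancr* at 26.6 against 16.4 CPM. The filter thus partly sets both shares of higher genes. *Gas5* was at 552 CPM in the class, 391 CPM in the intermediate and 337 CPM in the comparison nuclei, and at 673, 510 and 464 CPM over the replication tertiles. *Snhg12* was at 60.1 against 33.1 CPM and *Zfas1* at 73.8 against 45.5 CPM. *Snhg5* was the exception, at 31.6 against 40.7 CPM.

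In the MAX network, *Mxd3*, a MAX partner of dividing cells, was at 3.12 against 29.4 CPM, whereas *Mxd4* was higher. *Mxi1* was at 28.7 against 22.9 CPM and *Max* at 47.2 against 44.9 CPM. Picked singly in the same way, *Igfbp5*, a secreted binding protein of insulin-like growth factors, was at 20.9 against 6.27 CPM, and 48 of its 107 UMIs in the class came from the 24 members in cluster 7, where the ratio was 3.25 (2.23 to 4.69). The ratio was 6.09 (3.01 to 11.7) in cluster 0, 5.81 (3.12 to 10.2) in cluster 2 and 1.88 (1.17 to 2.88) in cluster 1, while clusters 5 and 3 had 1 and 5 UMIs.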
